A study of Mus musculus with 3 samples.

Results

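Interferon-stimulated genes are the genes that a cell switches on when an interferon binds its receptor. A set of 39 of them was read by symbol in 3 single-cell libraries of mouse liver, out of 55357 genes counted, and each symbol matched exactly 1 row. The libraries hold a mixture of hepatocytes and non-parenchymal cells from wild-type mice that were 8 weeks old at the start, with 2 mice pooled in each library. CON is the control. HFD mice ate a diet with 60% of its energy as fat for 4 months, and CCL4 mice ate chow for 3 months and then received carbon tetrachloride, a hepatotoxin used to produce liver fibrosis, for 4 weeks with 2 injections a week of 0.1 mL of a 10% solution. With 1 library a condition there is no replicate, so no difference between conditions was tested. Every interval is a 95% interval for counting error only and says nothing of the spread between mice.

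Type I interferons signal through the receptor pair IFNAR1 and IFNAR2 and type II interferon through IFNGR1 and IFNGR2, and Janus kinases then phosphorylate STAT proteins. STAT2 and IRF9 are parts of the factor ISGF3, which binds the interferon-stimulated response element (ISRE), while STAT dimers bind the gamma-activated sequence (GAS). The products block viral replication, degrade or sense foreign nucleic acid, coat pathogen vacuoles or feed back on the signal, and many liver cell types, hepatocytes included, keep a low level of them without infection.

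Stretches that hold the response element are shown for some members picked by hand, where the stretch did not lie over an annotated exon. Of the 39 members, 28 matched a promoter of RefSeq (build GRCm38.p6). In the 250 bases before the start, the ISRE letters (GAAA, any 2 bases, GAAA, or TTTC, any 2 bases, TTTC for the other strand) were present for 17 of these 28 members (60.7%), against 3.46% of 27025 genes and 2.98% of 32851 promoters. The GAS letters (TTC, any 3 bases, GAA, the same on both strands) were present for 6 of 28 members (21.4%), against 8.13% of genes and 7.02% of promoters. Bst2, Oas1a, Gbp7 and Igtp held both motifs, which can overlap. Herc6 matched a promoter without the ISRE letters, and Iigp1 and Zbp1, also named often below, matched no promoter. A match describes these letters in this window and is not evidence that a factor binds there. Capitals mark the ISRE letters, and each stretch reads 5′ to 3′ on the strand of its gene.
Bst2, chr8:71537567-71537622, minus strand, from 150 to 95 bases before the start: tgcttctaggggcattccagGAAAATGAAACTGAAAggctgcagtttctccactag
Isg15, chr4:156200855-156200916, minus strand, from 98 to 37 bases before the start: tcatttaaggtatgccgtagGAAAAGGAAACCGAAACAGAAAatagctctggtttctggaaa
Rsad2, chr12:26456543-26456592, minus strand, from 140 to 91 bases before the start: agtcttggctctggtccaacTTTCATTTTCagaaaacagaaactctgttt
Slfn5, chr11:82951927-82951976, plus strand, from 175 to 126 bases before the start: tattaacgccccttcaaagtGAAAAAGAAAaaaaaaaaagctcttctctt
Igtp, chr11:58199502-58199551, plus strand, from 54 to 5 bases before the start: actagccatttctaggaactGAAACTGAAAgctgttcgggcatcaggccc
Ifit1, chr19:34640765-34640833, plus strand, from 124 to 56 bases before the start: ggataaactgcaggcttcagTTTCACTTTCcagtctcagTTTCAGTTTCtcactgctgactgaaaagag
Ifit3, chr19:34583353-34583436, plus strand, from 176 to 93 bases before the start: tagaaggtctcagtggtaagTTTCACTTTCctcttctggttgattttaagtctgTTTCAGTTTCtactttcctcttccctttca
Ifit3b, chr19:34607749-34607832, plus strand, from 208 to 125 bases before the start: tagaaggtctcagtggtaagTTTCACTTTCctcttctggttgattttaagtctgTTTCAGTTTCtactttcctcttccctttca
Bst2 and Isg15 carry overlapping copies of the letters, and Ifit1, Ifit3 and Ifit3b carry 2 separate copies. The Ifit3 and Ifit3b stretches are equal over 84 of 84 bases. The start meant for each stretch is that of RefSeq. In the annotation used for exons (GENCODE M21) the Slfn5 gene begins at 82951349, so its stretch lies inside that annotated gene.

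The libraries held 11245 barcodes in CON, 12984 in HFD and 12761 in CCL4, with medians of 2939, 2336 and 2173 UMIs (unique molecular identifiers, one per captured RNA molecule). Any pair of libraries had 36 to 52 barcodes in common. Clustering without the interferon genes gave 38 clusters, of which 37 could be given 1 of 18 cell classes from marker genes. Classes are called hepatocyte-like and so on, and 10 of them had at least 50 cells in all 3 libraries. Many clusters were made almost wholly of cells from 1 library, so that the hepatocyte-like class was made of clusters 1 and 4 in CON, 30 and 32 in HFD and 31 and 35 in CCL4, with cluster 23 in CON and HFD. The control hepatocyte-like clusters were led by the acute-phase genes Saa1, Saa2 and Saa3 with Mt1 (cluster 1) and by Steap4, Serpina3n and Il1r1 (cluster 4). Endothelial-like, Kupffer-like, dendritic-like, granulocyte-like and cholangiocyte-like cells each formed 1 cluster with cells of all libraries. Cluster 27 stayed unnamed (7, 10 and 656 cells of CON, HFD and CCL4, led by Slc8a1), and its CCL4 cells had a member sum of 794 CPM. The doublet caller marked only 2, 1 and 3 barcodes, so it did not work here and doublets remain among the cells. RNA of hepatocyte genes was present in every class: a list of such genes was in T cell-like cells at 0.296 times its level in hepatocyte-like cells in CON, 0.691 times in HFD and 0.766 times in CCL4, and over the other classes compared it ran from 0.177 to 0.468 in CON, 0.455 to 0.891 in HFD and 0.569 to 0.901 in CCL4. Levels are given as CPM, the UMIs of a gene per 1000000 UMIs of all cells of a class in a library.

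Within each library the members were read at a higher summed CPM outside the hepatocyte-like cells than in them, an order that turned in CON when counted per cell. The sum in hepatocyte-like cells was 942 CPM (931 to 954) in CON, 726 CPM (713 to 738) in HFD and 673 CPM (662 to 685) in CCL4. In all other cells it was 1307 CPM (1292 to 1323), 1092 CPM (1076 to 1107) and 975 CPM (958 to 992), so the ratio of other cells to hepatocyte-like cells was 1.39, 1.505 and 1.45. All other cells include the unnamed cluster 27, which gave 656 of the 5705 such cells in CCL4. As UMIs per cell, without division by depth, hepatocyte-like cells had 5.20, 1.96 and 1.96 and all other cells 4.61, 2.94 and 2.30, a ratio of 0.887 in CON. Plasmacytoid dendritic-like cells had the highest sum of the classes with at least 50 cells, at 3938 CPM in CON, 2819 in HFD and 2311 in CCL4. Endothelial-like cells, the lining of sinusoids and vessels, had 3267 CPM in CON, 1844 in HFD and 1238 in CCL4, and Kupffer-like cells, the resident macrophages of the liver, had 2991 CPM in CON and 1916 in HFD. These 3 classes stood above the T, B and NK cell-like classes in every library in which they were compared. Classical monocyte-like cells had 1589 CPM in HFD and 2094 in CCL4, where they came next to plasmacytoid dendritic-like cells. Without Bst2, Iigp1 and Ifi27l2a, the members with most UMIs over all cells, plasmacytoid dendritic-like cells were no longer the highest. They then had 825, 695 and 494 CPM in CON, HFD and CCL4, and endothelial-like cells 1920, 951 and 656. Kupffer-like cells then had 1853 and 1101 CPM in CON and HFD, and classical monocyte-like cells 840 and 1057 in HFD and CCL4.

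**Figure D1:**
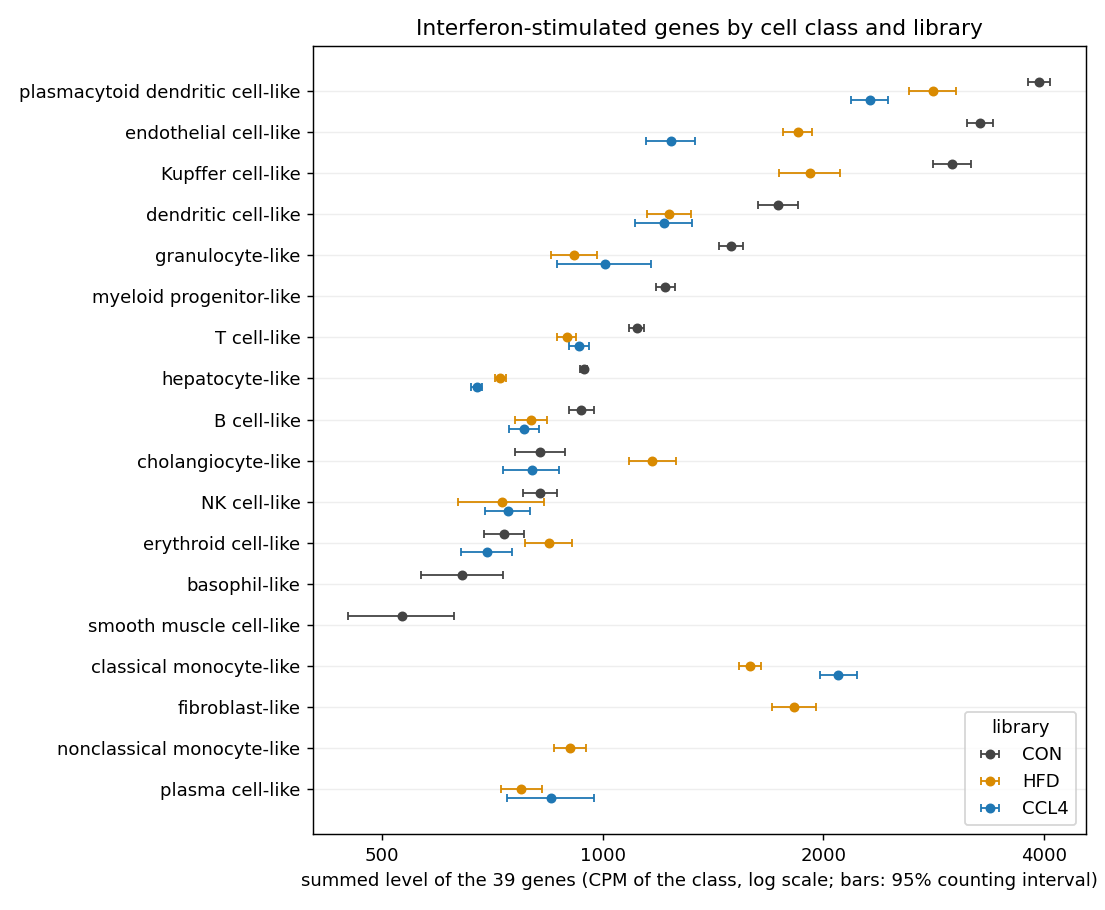
Summed level of the 39 genes in CPM (log axis) for each cell class with at least 50 cells in a library; points are the libraries CON, HFD and CCL4, bars 95% counting intervals. Plasmacytoid dendritic-like, endothelial-like and Kupffer-like cells are highest in CON, and most classes have their CON point to the right of the HFD and CCL4 points, with cholangiocyte-like and erythroid-like cells the exceptions in HFD.

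In hepatocyte-like cells the sum was mostly 2 genes. Iigp1, an immunity-related GTPase that acts on pathogen vacuoles, was at 389.6 CPM in CON, 196 in HFD and 228 in CCL4. Bst2, the membrane protein tetherin that holds budding virus on the cell, was at 224 CPM in CON, 334 in HFD and 185 in CCL4. The order of these genes therefore turned over between libraries, with Iigp1 above Bst2 in CON and CCL4 and below it in HFD. Ifi27l2a, the third member by UMIs over all cells, was low here, at 2.31, 3.93 and 2.19 CPM. The other 36 members together came to 326 CPM in CON, 192 in HFD and 259 in CCL4.

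The HFD and CCL4 hepatocyte-like cells each had a lower sum than the control cells. The sum had an HFD to CON ratio of 0.770 (95% interval 0.754 to 0.786) and a CCL4 to CON ratio of 0.715 (95% interval 0.700 to 0.730), and both ratios use the same control library. Without Bst2, Iigp1 and Ifi27l2a these ratios were 0.590 (0.567 to 0.614) and 0.794 (0.767 to 0.821). Counted per cell, the members gave 5.20 UMIs in CON and 1.96 in each of HFD and CCL4, in cells with medians of 3778, 2294 and 2290 UMIs. The ratio per cell was then 0.377 in HFD and 0.378 in CCL4, so its size depends on this scale.

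A member was called when its ratio of CPM was 2-fold or more in either direction and it had at least 25 UMIs over both libraries, and ratios are ranked over the members with that many. In HFD hepatocyte-like cells, 33 members could be read this way: 9 were lower, against 7.89% of all genes, and 1 was higher, against 8.58% of all genes. The median ratio was 0.636 over these members and 1.03 over all genes. In CCL4 hepatocyte-like cells 31 could be read, of which 6 were lower, against 9.24% of all genes, and 3 higher, against 10.2%. There the member median was 0.987, beside 1.01 over all genes. Oas1a, Oas2, Oas3, Ifit2, Mx1 and Slfn8 stayed under 25 UMIs in both comparisons, at 0 to 11 UMIs a library, and Oasl2 and Ifi204 did so in CCL4. The immune background list of 10 leukocyte genes was at 69.7, 77.7 and 59.8 CPM in these cells, and the hepatocyte list of 8 genes had ratios of 1.18 in HFD and 1.84 in CCL4. Their part in the member ratios was not tested.

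Among the GTPases, 2 of the 6 were called lower in HFD, against 7.89% of all genes, and 1 of the 6 in CCL4, against 9.24%. None was called higher, against 8.58% and 10.2%. With 6 members these counts are not read as a result about the group. Gbp2, a guanylate-binding protein that attacks pathogen membranes, was at 6.02 CPM in CON, 0.684 in HFD and 1.75 in CCL4, with an HFD ratio of 0.114 (95% interval 0.0576 to 0.204) and a CCL4 ratio of 0.291 (95% interval 0.197 to 0.419). It had the lowest HFD ratio of the 33 members that could be read and came from 167, 12 and 36 UMIs. Irgm1, a regulator of the other immunity-related GTPases, was at 31.1 CPM in CON, 12.4 in HFD and 21.9 in CCL4, with ratios of 0.397 (0.341 to 0.462) and 0.703 (0.626 to 0.788). Iigp1 had ratios of 0.502 (0.483 to 0.522) and 0.584 (0.565 to 0.605), just short of the 2-fold line in HFD. Gbp3 and Gbp7, of the same family as Gbp2, had HFD ratios of 0.503 and 0.608 and CCL4 ratios of 1.04 and 0.761. Igtp, another immunity-related GTPase, stood apart at 9.52, 9.41 and 15.1 CPM, with a CCL4 ratio of 1.58 (95% interval 1.34 to 1.87).

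Of the ubiquitin-like and related effectors, the ISG15 pair was low in both libraries. Isg15, the ubiquitin-like modifier that gives the group its name, was at 35.5 CPM in CON, 10.1 in HFD and 10.6 in CCL4, with ratios of 0.286 (0.242 to 0.335) and 0.298 (0.256 to 0.346). Herc6, the ligase that attaches it in mouse, was at 11.6 CPM in CON, 4.56 in HFD and 4.52 in CCL4, with ratios of 0.392 (0.303 to 0.502) and 0.388 (0.305 to 0.491). Usp18, the protease that removes it and also restrains the receptor, had the opposite order at 2.88, 4.56 and 5.88 CPM, with ratios of 1.58 (1.15 to 2.18) and 2.04 (1.53 to 2.74). So the modifier and its ligase had more CPM in the control, and the deconjugase had more in CCL4, where it was 1 of the 3 members called higher.

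Ifi44, an effector of poorly known biochemistry, had the highest CCL4 ratio of the 31 members that could be read, with 2.52 CPM in CON, 2.51 in HFD and 6.76 in CCL4 and a ratio of 2.68 (95% interval 2.00 to 3.62). Its HFD ratio was 0.994 (0.666 to 1.47). Bst2 had ratios of 1.49 (1.43 to 1.54) and 0.824 (0.791 to 0.858), higher in HFD and lower in CCL4. Trim30a, a ubiquitin ligase that damps NF-kappa-B signalling, was at 6.67, 2.79 and 6.66 CPM, low in HFD alone with a ratio of 0.419 (0.299 to 0.577). Xaf1, a pro-apoptotic zinc finger protein, had ratios of 0.480 (0.371 to 0.617) and 0.650 (0.523 to 0.804). The ADP-ribosyltransferase Parp14 had 0.746 and 0.565, and Rtp4, a receptor transporter with antiviral activity, had 0.651 and 1.20. Mx2, a dynamin-like GTPase, had 0.533 and 1.03. Slfn5 was at 0.757, 0.969 and 0.340 CPM from 21, 17 and 7 UMIs, and its CCL4 ratio of 0.450 (0.162 to 1.10) has an interval that reaches past 1.

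Of the sensors Zbp1 was low in both libraries. This protein, which binds Z-form nucleic acid and can start necroptosis, had its mRNA at 31.6 CPM in CON, 7.64 in HFD and 7.197 in CCL4, with ratios of 0.242 (0.2 to 0.290) and 0.228 (0.190 to 0.271). Its CCL4 ratio was the lowest of the 31 members that could be read. Ifih1, the double-stranded RNA sensor MDA5, was at 29.5, 18.8 and 25.1 CPM, and its partner Dhx58, or LGP2, at 6.70, 7.18 and 8.56 CPM, with no 2-fold difference. Ifi204, a DNA-binding protein of the AIM2 family, was close to absent from these cells, at 0.613, 1.14 and 0.340 CPM, with an HFD ratio of 1.86 (0.926 to 3.78).

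The nucleotide and RNA-binding effectors went both ways. Isg20, an exonuclease, was at 10.3 CPM in CON, 2.05 in HFD and 3.45 in CCL4, with ratios of 0.198 (0.136 to 0.281) and 0.334 (0.254 to 0.434). Rsad2, or viperin, which makes a chain-terminating nucleotide, was at 5.48 CPM in CON, 2.11 in HFD and 5.50 in CCL4. Its HFD ratio was 0.385 (0.261 to 0.555). In hepatocyte-like clusters with at least 2% mitochondrial UMIs it was at 9.84 CPM in CON, 2.15 in HFD and 5.20 in CCL4. In those under 2% it was at 1.27, 2.10 and 5.89 CPM, so the order of the libraries for Rsad2 differed between these kinds of cluster. Its neighbour Cmpk2, a nucleotide kinase, had 0.548 and 0.917. Oasl1, a member of the oligoadenylate synthetase family that lacks the synthetase activity, was at 4.18 CPM in CON, 8.496 in HFD and 8.90 in CCL4, with ratios of 2.03 (1.58 to 2.61) and 2.13 (1.68 to 2.71). It was the single member called higher in HFD, and no member was called higher there when the ratio was divided by the median of all genes, with a minimum of 2000 UMIs, at resolution 2.0, with each library clustered on its own, as UMIs per cell, or in the clusters with at least 2% mitochondrial UMIs. Ifit3, which with Ifit1 binds RNA that lacks a host cap, was at 2.31, 4.33 and 4.13 CPM, with ratios of 1.88 (1.33 to 2.66) and 1.79 (1.28 to 2.52). Ifit3b had 1.67 (0.830 to 3.37) and 1.72 (0.890 to 3.39) from 18, 19 and 23 UMIs, and 24.0% of the 31-base words in the last 500 bases of Ifit3 are also in other genes, Ifit3b above all, so reads may be split between them. Ifit1 was at 6.02, 3.65 and 8.32 CPM and Oasl2 at 0.541, 0.684 and 0.438 CPM.

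Of the signalling members none was 2-fold lower, against 7.89% of all genes in HFD and 9.24% in CCL4. Irf7, the factor that drives interferon alpha genes, was at 7.24 CPM in CON, 8.78 in HFD and 7.197 in CCL4, and Irf9, the DNA-binding part of ISGF3, at 27.3 CPM in CON, 25.1 in HFD and 28.5 in CCL4. Stat2, another subunit of ISGF3, was at 28.5 CPM in CON, 16.5 in HFD and 28.1 in CCL4, with an HFD ratio of 0.581 (95% interval 0.506 to 0.665). For Irf9 and Irf7 the intervals of both ratios to CON included 1. Ifi27l2a, a small mitochondrial protein counted among the effectors, had an HFD ratio of 1.71 (1.20 to 2.44) at the low levels given above.

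Set against each other without the control library, CCL4 hepatocyte-like cells had more of several members than HFD cells. Of 31 members 6 were higher in CCL4, against 5.9% of all genes, and 1 was lower, against 6.8%, with a median ratio of 1.29 over the members and 1.00 over all genes. The higher ones were Ifi44 at 2.69 (1.91 to 3.87), Rsad2 at 2.60 (1.78 to 3.89), Gbp2 at 2.56 (1.301 to 5.40), Trim30a at 2.38 (1.71 to 3.38), Ifit1 at 2.28 (1.70 to 3.09) and Gbp3 at 2.07 (1.08 to 4.18). Ifi204 was the lower one, at 0.299 (0.107 to 0.735). The ratio of the sum was 0.928, with Bst2 lower at 0.554 (0.532 to 0.577), and without Bst2, Iigp1 and Ifi27l2a it was 1.35 (1.29 to 1.41). Isg15, at 1.04 (0.853 to 1.28), Zbp1, at 0.942 (0.741 to 1.20), and Herc6, at 0.991 (0.727 to 1.35), were low against CON in both libraries and had intervals that included 1 here. These ratios pool clusters, and those with at least 2% mitochondrial UMIs gave 3019 of 7053 cells in CCL4 and 1182 of 6500 in HFD. In those Isg15 had a ratio of 2.502 (1.28 to 5.47), Trim30a 1.99 and Gbp3 1.91. Under 2%, CCL4 and HFD had 17.6 and 13.05 CPM of Isg15, 4.19 and 2.25 of Trim30a and 1.13 and 0.699 of Gbp3. So Isg15 was higher in CCL4 in both kinds. Of the 6 called higher, Ifi44 and Rsad2 were above 2-fold in both kinds and Trim30a and Gbp3 in neither. The hepatocyte list had a ratio of 1.57 and the immune list 0.769, and their part was not tested.

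**Figure D2:**
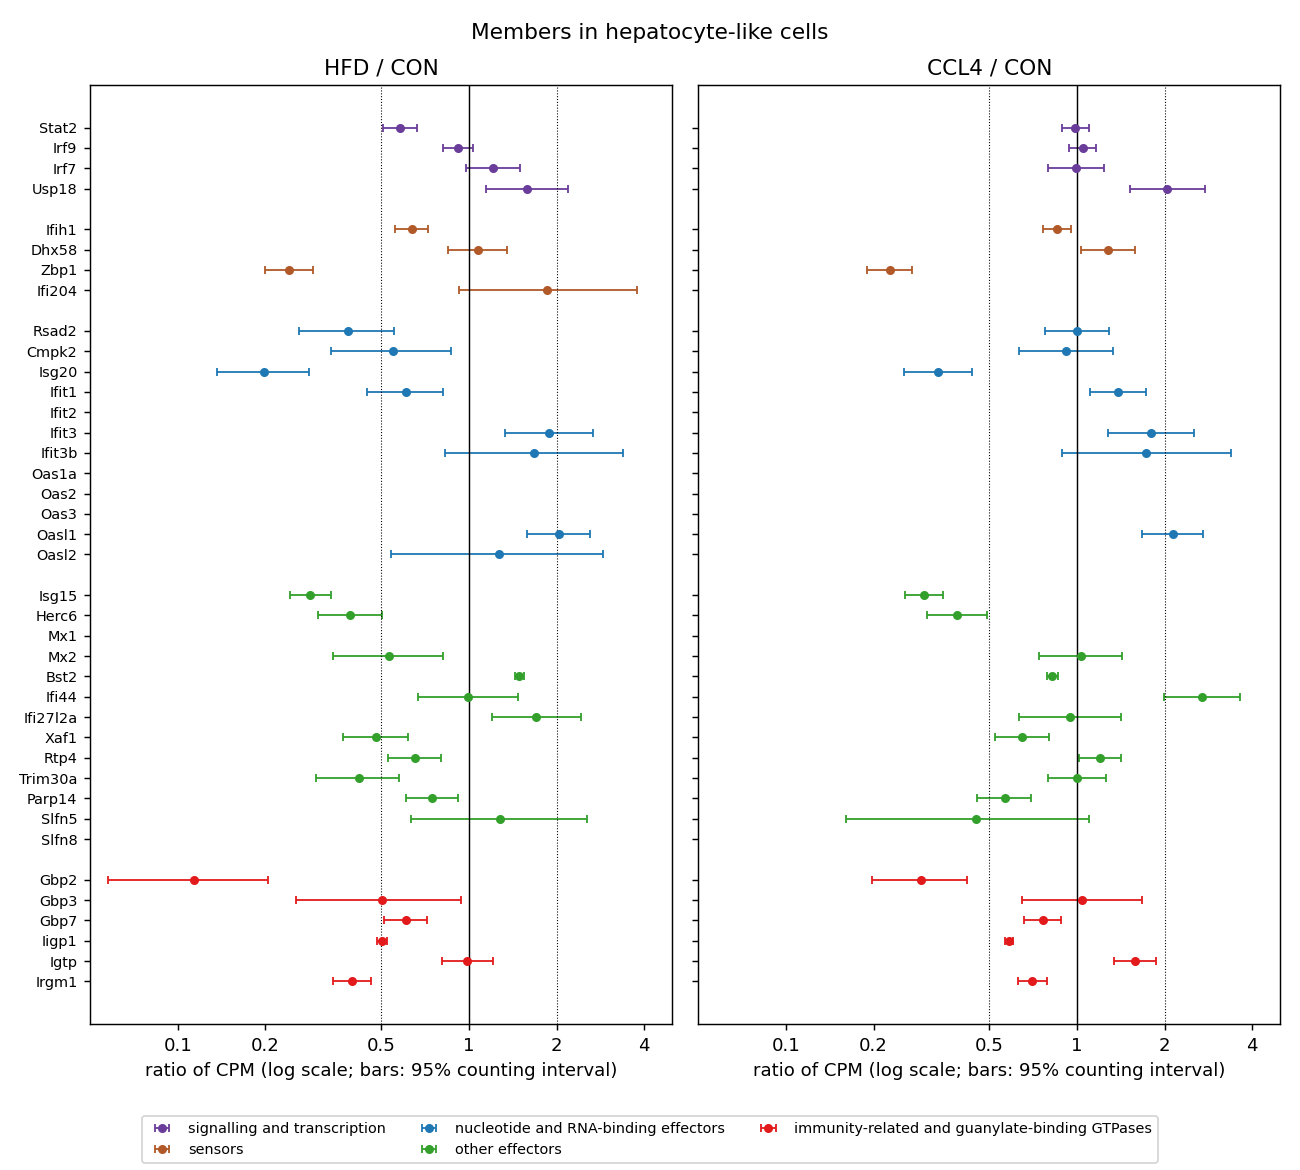
Ratio of CPM (log axis) in hepatocyte-like cells for HFD to CON (left, 33 members) and CCL4 to CON (right, 31 members); points are members coloured by role, bars 95% counting intervals, dotted lines the 2-fold limits. In HFD 9 points lie at or left of the lower limit and 1 right of the upper one, and in CCL4 6 and 3.

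Clusters of hepatocyte-like cells differed among themselves within each library, and the interferon genes had been kept out of the clustering. Those whose cells had under 2% mitochondrial UMIs in the median (3498 cells in CON, 5318 in HFD and 4034 in CCL4) read higher for Isg15 and Bst2 in all 3 libraries than those at 2% or more (1533, 1182 and 3019 cells). Isg15 was at 60.9 against 9.18 CPM in CON, 13.05 against 2.15 CPM in HFD and 17.6 against 5.37 CPM in CCL4, which are ratios of 6.63 (5.49 to 8.07), 6.08 (3.23 to 12.9) and 3.27 (2.42 to 4.46). Bst2 was at 316 against 129 CPM in CON, 392 against 171 CPM in HFD and 272 against 119 CPM in CCL4, with ratios of 2.44 (2.31 to 2.58), 2.29 (2.12 to 2.47) and 2.29 (2.14 to 2.44). Xaf1 was also at least 2-fold higher in the first kind of cluster in each library. Zbp1 went the same way, at 48.4 against 14.2 CPM in CON, 8.54 against 5.15 CPM in HFD and 9.97 against 5.11 CPM in CCL4. Stat2 went the other way, at 16.9 against 40.5 CPM in CON, 13.3 against 25.5 CPM in HFD and 15.6 against 37.5 CPM in CCL4, and Gbp7 was at least 2-fold lower in the first kind in each library. Iigp1 differed less, at 354 against 426 CPM in CON, 192 against 207 CPM in HFD and 199 against 249 CPM in CCL4.

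Of the members that could be read between these kinds of cluster, 6 of 29 were higher and 7 lower in CON, beside 11.9% and 28.1% of all genes. In HFD 4 of 27 were higher and 1 lower, beside 7.45% and 17.9%. In CCL4 3 of 29 were higher and 4 lower, beside 6.01% and 25%. The share of members lower was thus close to that of all genes in CON and below it in HFD and CCL4. Depth moved with the mitochondrial share, with median UMIs of 3130.5 against 8280 in CON, 2203 against 3633 in HFD and 1989.5 against 3345 in CCL4, and its part was not tested. Restricted to clusters at 2% or more, the low HFD ratios of Gbp2 (0.0743), Isg15 (0.234), Zbp1 (0.363) and Iigp1 (0.485) stayed in place, whereas the CCL4 ratio of Isg15 was 0.585.

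**Figure D3:**
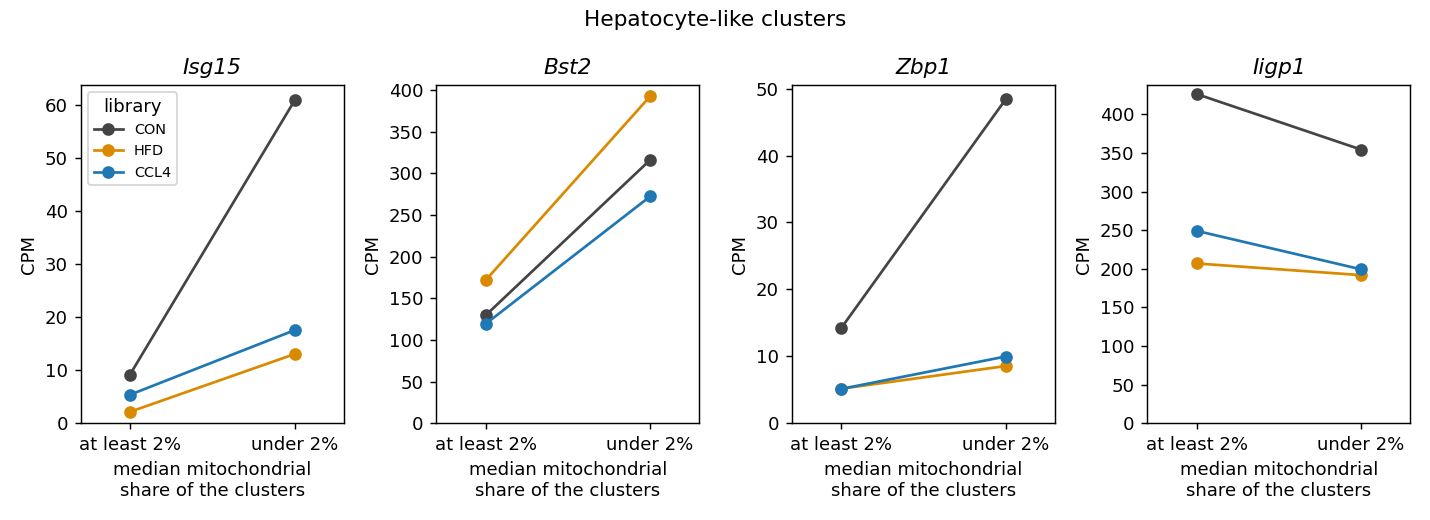
Levels in CPM of 4 members in hepatocyte-like clusters grouped by their median share of mitochondrial UMIs, at least 2% or under 2%; lines join the values of 1 library. Isg15, Bst2 and Zbp1 are higher in the clusters under 2% in all 3 libraries, and Iigp1 is somewhat lower.

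No member had its highest level in hepatocyte-like cells in any library, and 5 members, Ifit2, Stat2, Bst2, Trim30a and Iigp1, kept the same highest class in all libraries. Only classes with at least 50 cells were compared, 14 in CON, 15 in HFD and 12 in CCL4. Classical monocyte-like (26 cells), fibroblast-like (23) and plasma cell-like cells (26) were too few in CON, and fibroblast-like cells (15) in CCL4. A move of the highest class to or from these is therefore not read as a difference between libraries. In CON, Kupffer-like and endothelial-like cells were highest for 12 members each. In HFD cholangiocyte-like cells were highest for 9, Kupffer-like cells for 8, and endothelial-like and plasmacytoid dendritic-like cells for 6 each. In CCL4, where Kupffer-like cells were too few at 33, classical monocyte-like cells were highest for 14 and endothelial-like cells for 8. The counting interval of the ratio to the next class lay above 1 for 10 of 39 members in CON, 7 in HFD and 8 in CCL4, so most neighbours in these orders are not told apart.

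Among the signalling members Stat2 was highest in plasmacytoid dendritic-like cells in every library (71.0 CPM in CON, 85.0 in HFD and 47.8 in CCL4). Irf7 was highest in Kupffer-like cells of CON (71.7 CPM), plasmacytoid dendritic-like cells of HFD (42.5 CPM from 11 UMIs) and plasmacytoid dendritic-like cells of CCL4 (27.0 CPM from 13 UMIs). Irf9 was highest in dendritic-like cells of CON (81.7 CPM), Kupffer-like cells of HFD (58.9 CPM from 13 UMIs) and cholangiocyte-like cells of CCL4 (49.6 CPM), which are different classes in each library. Usp18 stayed low everywhere and was highest in Kupffer-like cells of CON (13.8 CPM from 5 UMIs), cholangiocyte-like cells of HFD (16.4 CPM from 10 UMIs) and plasmacytoid dendritic-like cells of CCL4 (10.4 CPM from 5 UMIs).

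Among the sensors Ifi204 was read in macrophage and vessel classes and hardly in lymphoid ones. It was highest in Kupffer-like cells of CON (245 CPM), Kupffer-like cells of HFD (136 CPM) and classical monocyte-like cells of CCL4 (148 CPM), and endothelial-like cells had 138 CPM in CON, 85.9 in HFD and 43.6 in CCL4. T cell-like cells had 1.27, 0.997 and 1.17 CPM. Ifih1 was highest in Kupffer-like cells of CON (55.1 CPM from 20 UMIs), Kupffer-like cells of HFD (63.4 CPM from 14 UMIs) and dendritic-like cells of CCL4 (34.0 CPM from 14 UMIs). Zbp1 was highest in NK cell-like cells of CON (35.3 CPM), plasma cell-like cells of HFD (44.5 CPM) and classical monocyte-like cells of CCL4 (55.9 CPM). Dhx58 was highest in Kupffer-like cells of CON (22.1 CPM from 8 UMIs), plasmacytoid dendritic-like cells of HFD (19.3 CPM from 5 UMIs) and endothelial-like cells of CCL4 (16.3 CPM from 9 UMIs), all from few UMIs.

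Of the nucleotide and RNA-binding effectors, Rsad2 and Isg20 were highest in erythroid-like cells in the control. Rsad2 was highest in erythroid-like cells of CON (94.5 CPM), Kupffer-like cells of HFD (67.9 CPM from 15 UMIs) and erythroid-like cells of CCL4 (41.8 CPM). In erythroid-like cells of HFD it was close to that level, at 65.2 CPM. Isg20 was highest in erythroid-like cells of CON (85.4 CPM), plasma cell-like cells of HFD (46.1 CPM) and plasma cell-like cells of CCL4 (68.9 CPM from 17 UMIs). All 4 Ifit genes were highest in endothelial-like cells in the control. Ifit1 was highest in endothelial-like cells of CON (32.4 CPM from 24 UMIs), fibroblast-like cells of HFD (20.6 CPM from 9 UMIs) and endothelial-like cells of CCL4 (20.0 CPM from 11 UMIs). Ifit2 was highest in endothelial-like cells in every library (44.5 CPM in CON, 31.7 in HFD and 29.1 in CCL4). Ifit3 was highest in endothelial-like cells of CON (44.5 CPM), Kupffer-like cells of HFD (36.2 CPM from 8 UMIs) and endothelial-like cells of CCL4 (18.2 CPM from 10 UMIs), and Ifit3b in endothelial-like cells of CON (13.5 CPM from 10 UMIs), endothelial-like cells of HFD (9.20 CPM from 9 UMIs) and granulocyte-like cells of CCL4 (10.9 CPM from 2 UMIs). The oligoadenylate synthetases, which make the activator of RNase L, were highest in myeloid classes. Oas3 was highest in granulocyte-like cells of CON (41.1 CPM), granulocyte-like cells of HFD (19.8 CPM from 16 UMIs) and classical monocyte-like cells of CCL4 (16.2 CPM from 9 UMIs). Oas2 was highest in Kupffer-like cells of CON (33.1 CPM from 12 UMIs), Kupffer-like cells of HFD (22.6 CPM from 5 UMIs) and classical monocyte-like cells of CCL4 (19.8 CPM from 11 UMIs), and Oas1a in dendritic-like cells of CON (7.11 CPM from 4 UMIs), classical monocyte-like cells of HFD (5.21 CPM from 11 UMIs) and classical monocyte-like cells of CCL4 (9.02 CPM from 5 UMIs). For Oas3 14.0% of the 31-base words near its 3′ end are in other genes, Gm38386 above all. For Oas1a 70.0% are, Oas1g above all, so its counts are uncertain. Of their relatives, Oasl2 was highest in Kupffer-like cells of CON (68.9 CPM), fibroblast-like cells of HFD (89.4 CPM) and classical monocyte-like cells of CCL4 (32.5 CPM from 18 UMIs). Oasl1 was highest in Kupffer-like cells of CON (22.1 CPM from 8 UMIs), granulocyte-like cells of HFD (23.6 CPM from 19 UMIs) and cholangiocyte-like cells of CCL4 (18.6 CPM from 12 UMIs). Cmpk2 was highest in granulocyte-like cells of CON (17.0 CPM), cholangiocyte-like cells of HFD (11.5 CPM from 7 UMIs) and endothelial-like cells of CCL4 (9.08 CPM from 5 UMIs).

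Among the other effectors Bst2 was highest in plasmacytoid dendritic-like cells in every library (2622 CPM in CON, 1753 in HFD and 1449.6 in CCL4), 3.495, 3.74 and 4.24 times the next class. In mouse its product is also a known surface marker of plasmacytoid dendritic cells. Ifi27l2a was highest in Kupffer-like cells of CON (516 CPM), classical monocyte-like cells of HFD (395 CPM) and classical monocyte-like cells of CCL4 (678 CPM). It was at 146 CPM in CON, 116 in HFD and 168 in CCL4 in T cell-like cells but at 5.89, 6.70 and 5.57 CPM in NK cell-like cells, a gap seen in each library. Slfn5, a schlafen family protein, was highest in endothelial-like cells of CON (379 CPM), endothelial-like cells of HFD (149 CPM) and classical monocyte-like cells of CCL4 (135 CPM), and endothelial-like cells of CCL4 had 52.7 CPM. Trim30a was highest in plasmacytoid dendritic-like cells in every library (258 CPM in CON, 193 in HFD and 135 in CCL4).

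Isg15 was highest in granulocyte-like cells of CON (113 CPM), cholangiocyte-like cells of HFD (73.7 CPM) and granulocyte-like cells of CCL4 (43.6 CPM from 8 UMIs). Herc6 was highest in T cell-like cells of CON (50.0 CPM), cholangiocyte-like cells of HFD (22.9 CPM from 14 UMIs) and classical monocyte-like cells of CCL4 (16.2 CPM from 9 UMIs). Ifi44 was highest in endothelial-like cells of CON (52.6 CPM), cholangiocyte-like cells of HFD (31.1 CPM from 19 UMIs) and endothelial-like cells of CCL4 (36.3 CPM from 20 UMIs). The ligase and its substrate had the same highest class in HFD alone. Parp14 was highest in Kupffer-like cells of CON (143 CPM), endothelial-like cells of HFD (65.4 CPM) and classical monocyte-like cells of CCL4 (54.1 CPM). Rtp4 was highest in Kupffer-like cells of CON (93.7 CPM), cholangiocyte-like cells of HFD (50.8 CPM) and granulocyte-like cells of CCL4 (27.2 CPM from 5 UMIs). Xaf1 was highest in endothelial-like cells of CON (43.2 CPM), endothelial-like cells of HFD (21.5 CPM from 21 UMIs) and classical monocyte-like cells of CCL4 (21.6 CPM from 12 UMIs). For the dynamin-like GTPases few molecules were seen, with Mx1 highest in plasmacytoid dendritic-like cells of CON (11.02 CPM from 9 UMIs), plasmacytoid dendritic-like cells of HFD (19.3 CPM from 5 UMIs) and dendritic-like cells of CCL4 (9.71 CPM from 4 UMIs). Mx2 was highest in endothelial-like cells of CON (16.2 CPM from 12 UMIs), cholangiocyte-like cells of HFD (4.91 CPM from 3 UMIs) and endothelial-like cells of CCL4 (9.08 CPM from 5 UMIs). Slfn8 was highest in T cell-like cells of CON (24.1 CPM), Kupffer-like cells of HFD (22.6 CPM from 5 UMIs) and classical monocyte-like cells of CCL4 (21.6 CPM from 12 UMIs), and it shares 38.7% of its 3′ words with other genes.

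Among the GTPases, Iigp1 was highest in endothelial-like cells in every library (510.0 CPM in CON, 384 in HFD and 299.6 in CCL4), 1.31, 1.55 and 1.32 times the next class. Gbp2 was highest in endothelial-like cells of CON (62.1 CPM), fibroblast-like cells of HFD (204 CPM) and classical monocyte-like cells of CCL4 (36.1 CPM from 20 UMIs). Gbp3 was highest in Kupffer-like cells of CON (52.4 CPM from 19 UMIs), Kupffer-like cells of HFD (27.2 CPM from 6 UMIs) and classical monocyte-like cells of CCL4 (19.8 CPM from 11 UMIs). These highest classes are vessel, stromal and macrophage classes, and B cell-like cells had 5.89, 2.70 and 2.21 CPM of Gbp2. Gbp7 was highest in endothelial-like cells of CON (78.3 CPM), fibroblast-like cells of HFD (75.6 CPM) and granulocyte-like cells of CCL4 (32.7 CPM from 6 UMIs). Igtp was highest in T cell-like cells of CON (43.3 CPM), cholangiocyte-like cells of HFD (49.1 CPM) and granulocyte-like cells of CCL4 (27.2 CPM from 5 UMIs), and Irgm1 in endothelial-like cells of CON (98.5 CPM), cholangiocyte-like cells of HFD (50.8 CPM) and plasmacytoid dendritic-like cells of CCL4 (39.5 CPM from 19 UMIs).

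**Figure D4:**
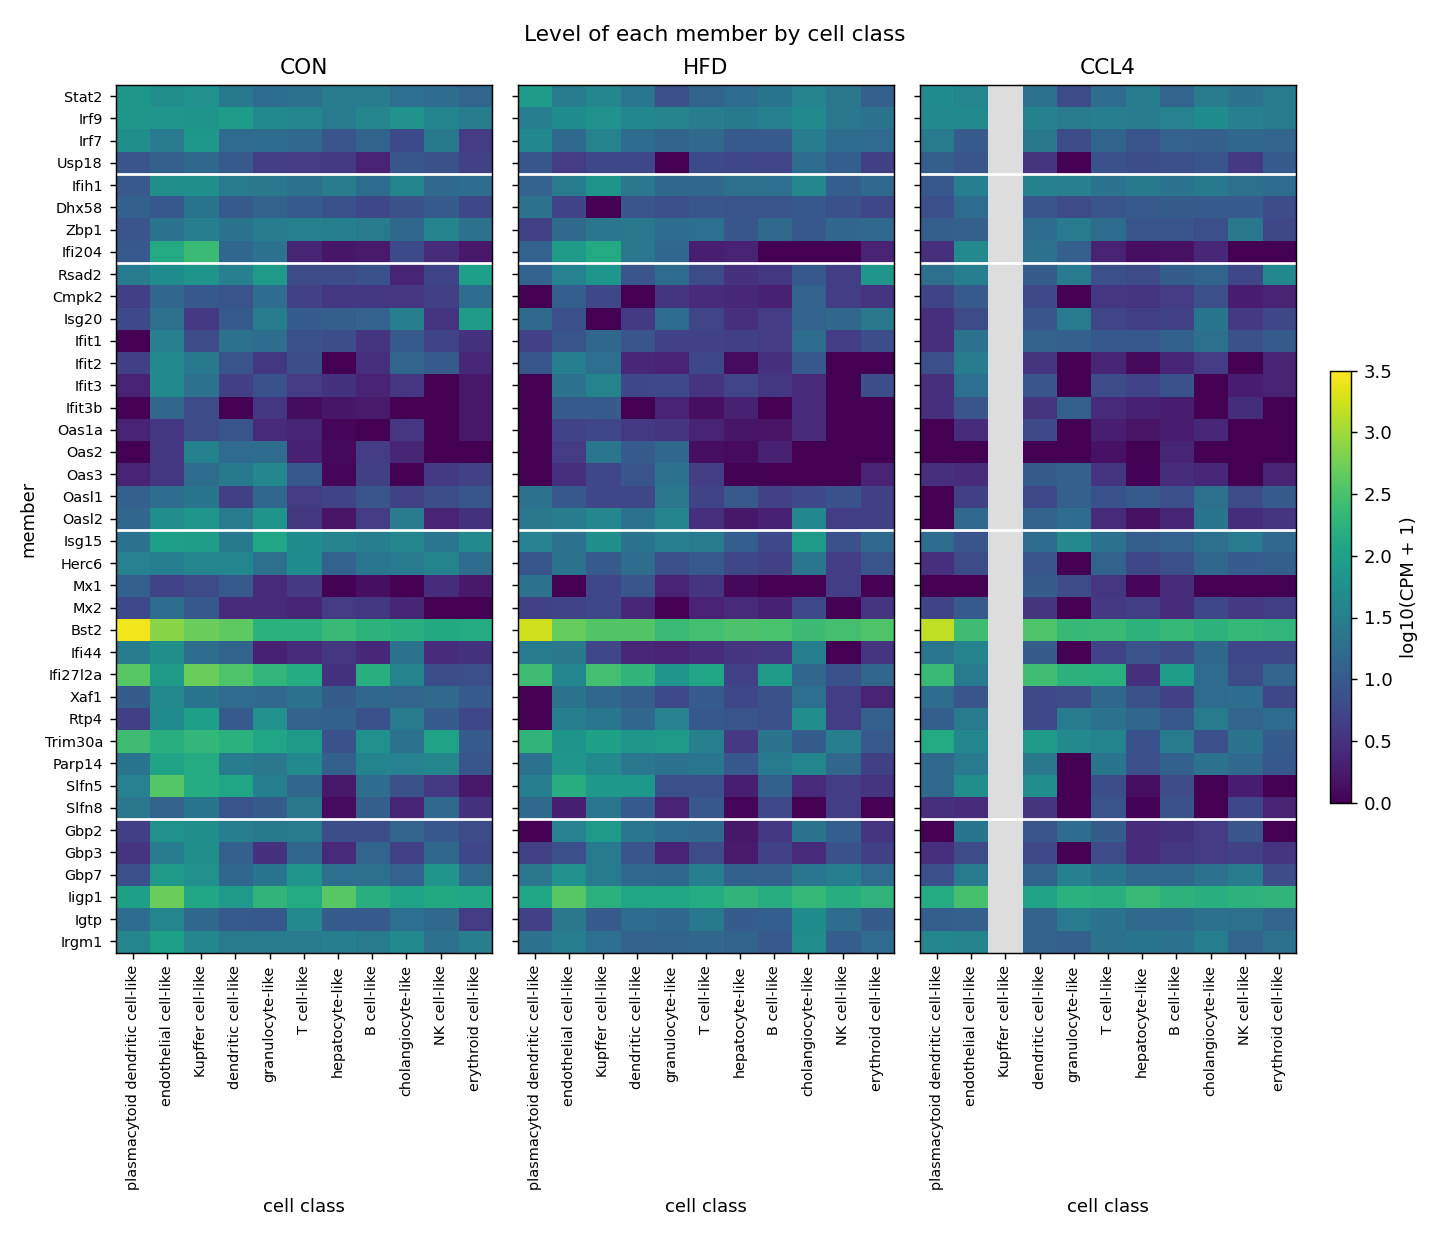
Level of each of the 39 members, as log10(CPM + 1), in 11 cell classes of CON, HFD and CCL4; rows are grouped by role with white lines between roles, and grey marks a class with fewer than 50 cells. Bright cells stand out for Bst2 in plasmacytoid dendritic-like cells, Slfn5 and Iigp1 in endothelial-like cells and Ifi204 in Kupffer-like and endothelial-like cells.

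Compared with CON, the summed level was higher in 2 of 11 classes in HFD, cholangiocyte-like and erythroid-like cells, and in none of 10 in CCL4. Outside the hepatocyte-like cells the median ratio over all genes was itself below 1, from 0.748 to 0.873 in HFD and from 0.647 to 0.841 in CCL4 (log2 shifts of -0.63 to -0.20), and the hepatocyte list was higher in every such class. In T cell-like cells, for example, that list had ratios of 2.74 in HFD and 4.77 in CCL4 and the immune list 0.544 and 0.405. Counts of lower members outside hepatocyte-like cells are therefore to be read beside the share of all genes, and the part of this shift in them was not tested.

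Endothelial-like cells showed the lowest ratios of the sum, 0.565 (95% interval 0.531 to 0.600) in HFD and 0.379 (95% interval 0.348 to 0.413) in CCL4, from 156, 332 and 166 cells of 1 shared cluster. In HFD 10 of 27 members were lower, against 15.5% of all genes, and in CCL4 15 of 24, against 36.2%, with none higher in either, against 11.3% and 12.8%. The median member ratio was 0.563 in HFD, where all genes had 0.821, and 0.350 in CCL4, where all genes had 0.653. Isg15 had 94.4 CPM in CON, 19.4 in HFD and 7.26 in CCL4, the lowest ratio in both, at 0.206 (0.117 to 0.345) and 0.0769 (0.0204 to 0.206). Slfn5 had 379 CPM in CON, 149 in HFD and 52.7 in CCL4, with ratios of 0.394 and 0.139 (0.0913 to 0.204). Gbp3, at 28.3, 6.13 and 5.45 CPM, had an HFD ratio of 0.216 (0.0715 to 0.554). The least lowered were Zbp1 and Iigp1 in HFD, with 0.758 and 0.754, and Stat2 and Ifi44 in CCL4, with 0.725 and 0.690. Zbp1 was at 20.2, 15.3 and 10.9 CPM, Stat2 at 52.6, 29.6 and 38.1 CPM and Ifi44 at 52.6, 24.5 and 36.3 CPM. The immune list had ratios of 0.645 and 0.368 in these cells and the hepatocyte list 3.84 and 8.13, and their part was not tested.

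Granulocyte-like cells, also 1 shared cluster (563, 326 and 90 cells), had sums of 1496 CPM in CON, 914 in HFD and 1007 in CCL4. Of the members 11 of 29 were lower in HFD, against 16.0% of all genes, and 15 of 27 in CCL4, against 24.6%. None was higher in either, against 7.29% and 9.84%. These cells held 1822679 UMIs in CON, 806135 in HFD and 183658 in CCL4. Most members therefore met the minimum of 25 UMIs over both libraries through their CON counts, above all in CCL4. A member low in CON could go unread, which limits these counts of lower and higher members. Of the members lower in CCL4, Oas2, Cmpk2, Herc6, Stat2, Irf7, Xaf1, Rtp4 and Irgm1 had intervals that reached past 1. The lowest HFD ratios were those of Cmpk2, 0.146 (0.0169 to 0.573) from 31, 2 and 0 UMIs, and Slfn5, 0.195 (0.0610 to 0.482) from 58, 5 and 0 UMIs. Rsad2 was also highest in CON, at 76.8 CPM in CON, 16.1 in HFD and 27.2 in CCL4. Oas2, Herc6, Parp14, Cmpk2 and Slfn5 were at 0 UMIs in the 90 CCL4 cells, from 31, 34, 44, 31 and 58 UMIs in CON. A count of 0 there allows up to 16.3 CPM. The highest ratios were those of Oasl1 and Igtp in HFD, 1.72 (0.895 to 3.25) and 1.66 (0.689 to 3.86), and of Gbp7 and Ifih1 in CCL4, 1.49 (0.516 to 3.53) and 1.38 (0.482 to 3.27), all with intervals across 1. Oasl1 was at 13.7, 23.6 and 10.9 CPM, Igtp at 8.23, 13.6 and 27.2 CPM, Gbp7 at 21.9, 13.6 and 32.7 CPM and Ifih1 at 23.6, 13.6 and 32.7 CPM.

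In plasmacytoid dendritic-like cells (cluster 16 in CON and 25 in HFD and CCL4) the ratio of the sum was 0.716 (95% interval 0.660 to 0.776) in HFD and 0.587 (95% interval 0.548 to 0.629) in CCL4, beside medians over all genes of 0.788 and 0.694. Without Bst2, Iigp1 and Ifi27l2a the ratios were 0.842 (0.710 to 0.994) and 0.599 (0.514 to 0.695). Here 2 of 12 members were lower in HFD, against 21.6%, and 3 of 14 in CCL4, against 28.1%. None was higher, against 9.90% and 10.1%. Herc6 was the lowest in both, from 28, 2 and 1 UMIs, with ratios of 0.225 (0.0260 to 0.893) and 0.0606 (0.00148 to 0.366). Irf9, at 71.0, 30.9 and 45.7 CPM, and Slfn5, at 34.3, 30.9 and 14.5 CPM, came next in HFD and CCL4. At the other end were Isg15, 1.67 (0.656 to 3.96), and Stat2, 1.20 (0.697 to 1.98), in HFD and Iigp1, 1.5 (1.07 to 2.10), and Irgm1, 1.04 (0.555 to 1.90), in CCL4. Isg15 was at 20.8, 34.8 and 16.6 CPM, Iigp1 at 95.5, 112 and 143 CPM and Irgm1 at 38.0, 19.3 and 39.5 CPM. Kupffer-like cells had an HFD ratio of the sum of 0.641 (95% interval 0.571 to 0.717), with 5 of 18 members lower, against 20.2% of all genes. Dendritic-like cells, the antigen-presenting class of 1 shared cluster, had 0.711 (95% interval 0.647 to 0.781) and 0.698 (95% interval 0.626 to 0.779), with 2 of 14 lower in HFD, against 16.6%, and 4 of 9 in CCL4, against 21.3%, and none higher, against 11.2% and 10.6%. Trim30a (169, 70.2 and 80.1 CPM) and Herc6 (39.1, 16.4 and 7.28 CPM) were lowest in HFD, and Herc6 and Irf9 (81.7, 41.8 and 34.0 CPM) in CCL4. Iigp1 (76.4, 113 and 104 CPM) was the highest in both, followed by Zbp1 (21.3, 23.9 and 17.0 CPM) in HFD and Ifih1 (26.7, 23.9 and 34.0 CPM) in CCL4.

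In the T, B and NK cell-like classes several members were lower and Bst2 was higher. In CCL4 the share of members lower was 42.4%, 40% and 31.6% in these classes, against 34.4%, 31.4% and 32.8% of all genes. The CCL4 counts of lower members are therefore not read as a result about the members. Bst2 in HFD hepatocyte-like cells was at 334 CPM, which is above its HFD level in all 3 of these classes, and the part of hepatocyte RNA in these levels was not tested. In T cell-like cells (clusters 3, 5 and 6 in CON, 26 in HFD and 28 in CCL4) the sum had ratios of 0.803 (95% interval 0.773 to 0.834) and 0.834 (95% interval 0.802 to 0.868), and of 0.535 (0.506 to 0.566) and 0.567 (0.535 to 0.601) without Bst2, Iigp1 and Ifi27l2a. Cluster 5 (750, 3 and 1 cells of CON, HFD and CCL4) was led by Lef1 and Tcf7. Cluster 6 (858, 2 and 3 cells) was led by Cd7 and Xcl1, with 0 T cell markers among its leading genes. The part of this mix of clusters in the T cell-like ratios was not tested. In HFD 11 of 33 members were lower, against 24.8% of all genes, and none higher, against 11%, and in CCL4 14 of 33 were lower, against 34.4%, and 3 higher, against 9.79%. Herc6 was the lowest in both, at 50.0 CPM in CON, 8.58 in HFD and 12.0 in CCL4, with ratios of 0.172 (0.122 to 0.237) and 0.240 (0.175 to 0.323). Slfn8, at 24.1, 7.78 and 7.05 CPM, was next in HFD and Ifit2, at 5.87, 4.79 and 1.41 CPM, was as low as Herc6 in CCL4. Bst2, at 168 CPM in CON, 282 in HFD and 226 in CCL4, and Usp18, at 3.01, 5.19 and 6.58 CPM, had the highest HFD ratios, 1.68 (1.55 to 1.82) and 1.72 (0.916 to 3.29). Ifi44 (1.59, 1.80 and 3.99 CPM), Oasl1 (3.01, 4.19 and 6.58 CPM) and Usp18 were the members called higher in CCL4, with 2.52 (1.09 to 6.15), 2.18 (1.18 to 4.14) and 2.18 (1.18 to 4.14). They are the 3 members that were called higher in CCL4 hepatocyte-like cells too, and in both classes the values come from the same libraries. In each class the number called higher is close to the share of all genes. The share of all genes called higher in both classes is not given, so the overlap is not read as a result. The part of hepatocyte RNA in the T cell-like values was not tested.

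In B cell-like cells (cluster 10 in CON, 29 in HFD and 37 in CCL4, with 9 in all) the ratios of the sum were 0.854 (95% interval 0.800 to 0.911) and 0.836 (95% interval 0.786 to 0.890). In HFD 8 of 23 members were lower, against 22.6%, and none higher, against 9.02%, and in CCL4 10 of 25, against 31.4%, with 2 higher, against 8.80%. Isg15 (30.6, 4.85 and 11.5 CPM) and Herc6 (22.4, 3.78 and 6.18 CPM) were lowest in HFD, and Gbp3 (12.96, 3.78 and 2.65 CPM) and Herc6 in CCL4. Bst2 (181, 308 and 218 CPM) and Dhx58 (4.71, 7.01 and 9.71 CPM) were highest in HFD. In CCL4 Ifit1 was at 2.36, 3.24 and 11.03 CPM, from 6, 6 and 25 UMIs, a ratio of 4.68 (1.88 to 14.0), and Dhx58 had 2.06 (0.976 to 4.57). In NK cell-like cells (cluster 0 in CON and 34 in HFD and CCL4) the HFD ratio of the sum, 0.889 (95% interval 0.767 to 1.03), had an interval across 1, and the CCL4 ratio was 0.904 (95% interval 0.828 to 0.987). Without Bst2, Iigp1 and Ifi27l2a they were 0.510 (0.403 to 0.638) and 0.606 (0.535 to 0.685). In HFD 9 of 17 members were lower, against 23.7%, with 1 higher, against 8.18%, and in CCL4 6 of 19, against 32.8%. NK cell-like cells held 1698691 UMIs in CON, 298722 in HFD and 1077249 in CCL4. Members therefore met the minimum of 25 UMIs mostly through their CON counts, above all in HFD. A member low in CON could go unread, which limits these counts of lower and higher members. Of those lower in HFD, Isg15, Xaf1, Slfn8, Zbp1 and Gbp3 had 1 to 4 UMIs there and intervals that reached past 1. Herc6 came from 63, 1 and 10 UMIs, with an HFD ratio of 0.0903 (0.00225 to 0.522). Xaf1 (15.3, 3.35 and 16.7 CPM from 26, 1 and 18 UMIs) was next in HFD. Trim30a (103, 30.1 and 21.4 CPM) and Herc6 were lowest in CCL4. Bst2, at 133 CPM in CON, 291 in HFD and 218 in CCL4, was highest in both, with ratios of 2.19 (1.69 to 2.82) and 1.64 (1.36 to 1.98), followed by Stat2 (17.1, 23.4 and 21.4 CPM) in HFD and Iigp1 (131, 151 and 185 CPM) in CCL4.

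Cholangiocyte-like cells, the bile duct lining and 1 shared cluster of 115, 165 and 208 cells, had a higher sum in HFD, at 822 CPM in CON, 1169 in HFD and 800.3 in CCL4. The HFD ratio of the sum was 1.42 (95% interval 1.28 to 1.58), and 1.31 (1.14 to 1.503) without Bst2, Iigp1 and Ifi27l2a. Of 15 members 3 were higher in HFD, against 7.04% of all genes, and 2 lower, against 9.98%, with a median member ratio of 1.52 against 0.873 over all genes. Igtp was at 17.9 CPM in CON, 49.1 in HFD and 20.2 in CCL4, a ratio of 2.74 (95% interval 1.41 to 5.60). Iigp1 was at 106 CPM in CON, 214 in HFD and 158 in CCL4, a ratio of 2.02 (1.52 to 2.69), and Stat2 at 17.9, 36.02 and 29.5 CPM, a ratio of 2.01 (0.984 to 4.25). Isg15, at 39.6, 73.7 and 18.6 CPM, had 1.86 (1.15 to 3.04) in HFD and 0.470 (0.220 to 0.940) in CCL4. The lowest in HFD were Ifi27l2a (35.8, 13.1 and 15.5 CPM) and Isg20 (30.7, 11.5 and 21.7 CPM). In CCL4 the ratio of the sum was 0.973 (95% interval 0.865 to 1.09), with 2 of 15 lower, against 18.3%, none higher, against 7.96%, and Stat2 and Iigp1 highest, at 1.65 (0.783 to 3.55) and 1.49 (1.10 to 2.02).

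In erythroid-like cells (cluster 12 in CON, 33 in HFD and 36 in CCL4, with 2 and 21 in all) the sum had an HFD ratio of 1.15 (95% interval 1.04 to 1.27). Bst2 was at 140.2 CPM in CON, 344 in HFD and 203 in CCL4, and without Bst2, Iigp1 and Ifi27l2a the HFD ratio was 0.644 (0.553 to 0.748). The CCL4 ratio was 0.947 (95% interval 0.853 to 1.05), and 0.617 (0.530 to 0.717) without these 3. Isg20 was at 85.4 CPM in CON, 24.1 in HFD and 4.64 in CCL4, with ratios of 0.283 (0.166 to 0.458) and 0.0544 (0.0146 to 0.143). Of 12 members 1 (Bst2) was higher in HFD, against 13.8% of all genes, 3 were lower in HFD, against 32.2%, and 5 in CCL4, against 33.6%. The next lowest were Isg15 in HFD (45.0, 14.5 and 15.1 CPM) and Zbp1 in CCL4 (19.1, 14.5 and 4.64 CPM). Iigp1 (126, 189 and 194 CPM) was second highest in both, after Bst2 in HFD and Stat2 (12.96, 10.9 and 25.5 CPM) in CCL4. Hepatocyte-list levels in these cells were 27904, 83654 and 132747 CPM, and HFD hepatocyte-like cells had the highest Bst2 of the hepatocyte-like cells. The part of that in the erythroid values was not tested.

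Seen across the classes in which a member could be read, Herc6 was the member most often low. Its ratio was below 1 in 10 of 10 classes in both comparisons, and 2-fold or more lower in 8 of 10 in each. Trim30a was below 1 in 8 of 8 classes in both, and 2-fold lower in 6 of 8 in each. Slfn5 was 2-fold lower in 7 of 7 classes in CCL4, with an interval below 1 in 6 of them, and in 3 of 7 in HFD. Isg15 was 2-fold lower in 6 of 10 classes in HFD and 7 of 9 in CCL4. Bst2 had an interval above 1 in 7 of 10 classes in HFD and below 1 in 2, endothelial-like and plasmacytoid dendritic-like cells, where it was most abundant. Kupffer-like cells, outside these 10 classes, had an HFD ratio of Bst2 of 0.714 (0.542 to 0.934). Over all genes, 47.4% to 66.1% lay below 1 in a class in HFD and 48.5% to 71.7% in CCL4, and 7.89% to 32.2% and 9.24% to 36.2% were 2-fold lower. The classes of a library come from the same run and CON is in every ratio, so these counts are not independent. A class was read only where the member had at least 25 UMIs over both libraries, often mainly through its CON counts. A class with a low CON count could go unread, which limits these counts. For Slfn5 in CCL4, NK cell-like (5 and 1 UMIs in CON and CCL4), cholangiocyte-like (5 and 0) and erythroid-like cells (1 and 0) went unread.

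**Figure D5:**
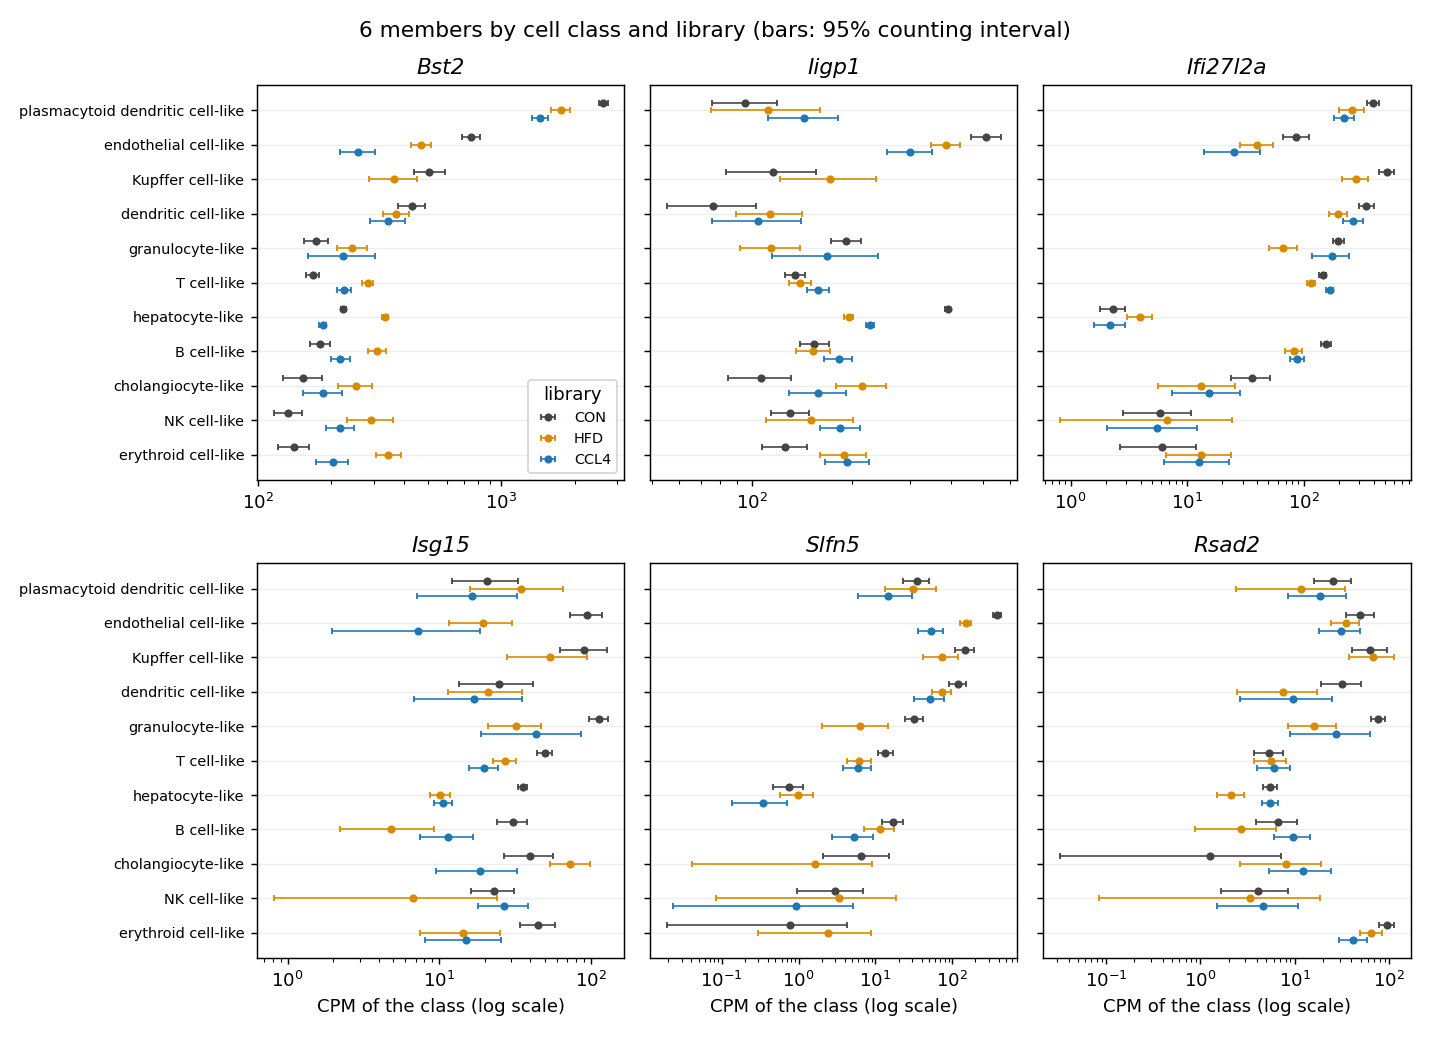
Levels in CPM (log axes) of Bst2, Iigp1, Ifi27l2a, Isg15, Slfn5 and Rsad2 in 11 cell classes; points are the libraries, bars 95% counting intervals, and a class with 0 UMIs or fewer than 50 cells in a library has no point. Bst2 in HFD lies right of CON in lymphoid, granulocyte-like, cholangiocyte-like, erythroid-like and hepatocyte-like cells. It lies left of CON in endothelial-like, plasmacytoid dendritic-like, Kupffer-like and dendritic-like cells.

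Single cells with many members were found mostly in the control. Leaving out Bst2, Iigp1 and Ifi27l2a, at least 10 of the other 36 members were seen in 25 of 156 (16.0%, exact 95% interval 10.6% to 22.7%) endothelial-like cells of CON, in 2 of 332 of HFD and in 1 of 166 of CCL4. In Kupffer-like cells it was 14 of 72 (19.4%, exact 95% interval 11.1% to 30.5%) in CON and 1 of 81 in HFD. In hepatocyte-like cells it was 16 of 5031, 1 of 6500 and 2 of 7053, and in T cell-like cells 9 of 2264, 0 of 2096 and 2 of 1943. The highest number in 1 cell was 23, reached by 1 hepatocyte-like cell with 10974 UMIs and 1 T cell-like cell with 2439 UMIs, both in CON. Depth moved with these counts, since control endothelial-like cells had a median of 3952.5 UMIs against 2476.5 in HFD and 2736.5 in CCL4. With every cell thinned to 1000 UMIs, the share with at least 3 UMIs of the 36 members was 26.4%, 9.12% and 6.37% in endothelial-like cells, where the unthinned shares were 82.1%, 41.9% and 30.7%. Thinned shares were 27.3% and 12.8% in Kupffer-like cells of CON and HFD, 12.8%, 2.53% and 1.90% in granulocyte-like cells and 0.827%, 0.261% and 0.369% in hepatocyte-like cells. The unthinned shares were 83.3% and 46.9%, 38.7%, 13.5% and 7.78%, and 23.5%, 2.80% and 5.93%. No cell was shallower than 1000 UMIs, so none was left out.

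The ligands and other genes of the pathway, 80 in all, were read beside the members. Ifnb1, the type I ligand interferon beta, had 8 UMIs in CON, 3 in HFD and 0 in CCL4 over all cells, and the interferon alpha, epsilon and lambda genes on the list had 0 in every library. Ifnk had 0, 0 and 6 UMIs. Ifng, the type II ligand, was at 238 CPM in CON, 187 in HFD and 106 in CCL4 in NK cell-like cells and at 123 CPM in CON, 108 in HFD and 64.2 in CCL4 in T cell-like cells. Of the receptors, Ifngr1 in NK cell-like cells was at 911, 318 and 311 CPM, and Ifnar1 in plasmacytoid dendritic-like cells at 229, 178 and 125 CPM. These ligand and receptor levels were highest in CON. The Ifng ratios in NK cell-like cells were 0.786 in HFD and 0.444 in CCL4, beside medians of 0.784 and 0.685 over all genes. In T cell-like cells they were 0.882 and 0.523, beside 0.754 and 0.647. Among 4 receptors read in HFD NK cell-like cells, Ifnar2 was called higher and Ifngr1 and Il10rb lower, against 8.18% and 23.7% of all genes. Medians over all genes in plasmacytoid dendritic-like cells were 0.788 and 0.694. In plasmacytoid dendritic-like cells Tlr7, the RNA sensor of endosomes, was at 69.8, 30.9 and 49.8 CPM.

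In hepatocyte-like cells Socs1 and Cxcl10 had the lowest ratios of the pathway genes that could be read, in both comparisons. Cxcl10, a chemokine that attracts T cells, was at 50.5 CPM in CON, 4.505 in HFD and 6.42 in CCL4, and Socs1, the inhibitor of Janus kinases, at 17.6 CPM in CON, 1.20 in HFD and 1.75 in CCL4. Ifitm3, which blocks viral entry, was at 2089.7, 1229.8 and 1146 CPM. Among 44 other interferon-stimulated genes, 31 could be read in HFD, with 8 lower and none higher, and 32 in CCL4, with 9 lower and 2, Tap1 and Tor3a, higher, against the same shares of all genes as the members. Of the 6 receptors 5 could be read in each comparison, with none called in HFD and 3 lower in CCL4 (Ifnar2, Ifngr2 and Il10rb). Of the 11 kinases and factors all could be read, with 4 lower in HFD (Irf5, Irf8, Socs1 and Socs3) and 2 in CCL4 (Irf8 and Socs1). Of the 9 sensing genes 5 could be read, with Myd88, the Toll-like receptor adaptor, lower in both. Beside these counts of receptors, kinases and factors, and sensing genes, 7.89% of all genes were lower in HFD and 9.24% in CCL4.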

How the data were processed

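One single-cell library (10x 3′ v3.1) was made for each of CON, HFD and CCL4. The deposited values are unnormalised UMI counts, which the authors obtained with Cell Ranger 7.2.0. The study's methods name mm10 and the submitters' notes GRCm39, so the build is not settled, and coordinates printed here are those of RefSeq GRCm38.p6. All barcodes passed minimums of 500 UMIs and 200 genes, and 39 with over 30% mitochondrial UMIs and 6 marked by Scrublet were left out, leaving 36945 cells with totals of 49613255, 34985786 and 34061186 UMIs per library before filtering. Cells were clustered with scanpy 1.11.5 (2000 variable genes, none of 119 interferon genes, 30 components, 15 neighbours, Leiden resolution 1.0). A cluster took the class with most markers among its leading genes, or else with the largest share of markers raised, where at least 3 were raised 1.5 times over the median of clusters. This rule was set after the clusters were seen and is the second of 2 forms tried. Counts were summed per class and library, and Sting1 and Cgas were read for their older symbols Tmem173 and Mb21d1. Intervals are exact (Poisson for levels, Clopper-Pearson for shares and its conditional binomial form for ratios) at 95%, and a count of 0 allows up to 3 counts. Scripts were tested on simulated data. The members and lists were chosen with earlier results of these data known. Levels were given for every library for the 5 highest and 5 lowest hepatocyte-like ratios, the 2 highest and 2 lowest in each other class, and the highest class of each member. Other genes and members named were chosen after their values were seen. The alternatives tried are given in the closing section.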

Additional observations from a re-analysis of the deposited data

Results flagged for a closer look

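The following ratios went in opposite directions in different cell classes of the same libraries, each with a counting interval away from 1, and the differences between classes were not tested. The summed HFD to CON ratio was 1.42 in cholangiocyte-like and 1.15 in erythroid-like cells but 0.770 in hepatocyte-like cells. Without Bst2, Iigp1 and Ifi27l2a these ratios were 1.31, 0.644 (0.553 to 0.748) and 0.590. In erythroid-like cells Bst2 in HFD was at 1.03 times its hepatocyte-like level and Iigp1 in CCL4 at 0.852 times. The hepatocyte list was there at 0.891 times in HFD and 0.901 times in CCL4, and its part in the erythroid-like ratios was not tested. For single members in HFD, Isg15 had 1.86 in cholangiocyte-like and 0.158 in B cell-like cells. Ifit3 had 1.88 in hepatocyte-like and 0.459 in endothelial-like cells. Ifi27l2a had 1.71 in hepatocyte-like and 0.336 in granulocyte-like cells. Bst2 had 2.45 in erythroid-like and 0.625 in endothelial-like cells. Rtp4 had 1.89 in cholangiocyte-like and 0.592 in granulocyte-like cells. Iigp1 had 2.02 in cholangiocyte-like and 0.502 in hepatocyte-like cells. Igtp had 2.74 in cholangiocyte-like and 0.580 in T cell-like cells. In CCL4, Ifit3 had 1.79 in hepatocyte-like and 0.408 in endothelial-like cells. Bst2 had 1.64 in NK cell-like and 0.344 in endothelial-like cells. Iigp1 had 1.54 in erythroid-like and 0.584 in hepatocyte-like cells. Igtp had 1.58 in hepatocyte-like and 0.288 in endothelial-like cells.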

How the results depend on the processing

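With 1 library a condition and pools of 2 mice, no difference could be set against the spread between mice, and depth limits members under 25 UMIs. Of 156 values under alternatives 95 stayed within the limits set for them and 61 moved. Of the ratios, that of other cells to hepatocyte-like cells in CON turned direction, as UMIs per cell. The first form of the naming rule and the sum without Bst2 and Iigp1 were chosen after seeing the data. No paired analysis was possible because each condition has 1 library. The cause of the shifts below was not tested.

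In hepatocyte-like cells the summed HFD and CCL4 ratios to CON were 0.377 and 0.378 as UMIs per cell, 0.787 and 0.763 outside mitochondrial and the 20 most abundant genes, 0.602 and 0.671 with the first naming form, 0.590 and 0.794 without the 3 most abundant members, 0.598 and 0.795 without Bst2 and Iigp1, and 0.672 and 0.738 in clusters with at least 2% mitochondrial UMIs. Members lower in HFD numbered 22 as UMIs per cell and 18 at 1.5-fold, and those lower in CCL4 14 as UMIs per cell and 3 in the clusters with at least 2%. Members higher in HFD numbered 0 with a minimum of 2000 UMIs, at resolution 2.0, with each library clustered on its own, as UMIs per cell, relative to the median of all genes and in the clusters with at least 2%, 4 with the first naming form, 5 without the 8% highest Scrublet scores and 6 at 1.5-fold. Members higher in CCL4 numbered 5 without those Scrublet scores, 8 with the first naming form, 0 as UMIs per cell and 6 at 1.5-fold. The share of all genes under each of these alternatives is not given, so these counts are not read as results about the members. UMIs per cell are not divided by depth, and hepatocyte-like cells had medians of 3778 UMIs in CON, 2294 in HFD and 2290 in CCL4.

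The number of classes with a higher sum in HFD was 1 with a limit of 20% mitochondrial UMIs, with a minimum of 2000 UMIs, with each library clustered on its own, without the 3 most abundant members and without Bst2 and Iigp1, and 0 as UMIs per cell. In CCL4 it was 1 without the highest Scrublet scores, at resolution 0.5, with own clustering and with interferon genes among the variable genes, and 3 outside the abundant genes.

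The ratio of other cells to hepatocyte-like cells in CON, HFD and CCL4 was 1.43, 1.56 and 1.52 with a minimum of 2000 UMIs, 1.15, 1.33 and 1.32 outside the abundant genes, 2.14, 2.52 and 1.59 without the 3 most abundant members, 2.68, 3.17 and 2.06 without Bst2 and Iigp1, and 1.49, 1.85 and 1.504 against the clusters with at least 2%. As UMIs per cell it was 0.887 in CON and 1.17 in CCL4, with own clustering 1.45 in HFD and 1.305 in CCL4, and with the first naming form 1.14 in CON and 1.59 in HFD.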
